A study of Homo sapiens with 6 samples.

Results

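The MYC, MAX and MXD network is a family of transcription factors that meet on a common partner, MAX, and was followed here in COV434 cells treated with 4HC. Its members were taken by gene symbol from the deposited gene table, which gave 10 of 16798 genes: the activators MYC, MYCN and MYCL, the partner MAX, and the antagonists MXD1, MXD3, MXD4, MXI1, MNT and MGA. All 10 were in the table, and 9 had enough reads to be tested.

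COV434 is an immortalized human line that the labels describe as granulosa cells, the hormone-producing cells that surround the oocyte. Bulk RNA sequencing was carried out on 3 control samples, with the genotype entry WT, and on 3 samples labelled CTX, which had been exposed to 15 µM 4HC for 24 h. 4HC is the active form of cyclophosphamide (CTX), an alkylating drug that damages DNA, and the comparison asks how it changed the transcriptome of these cells. All samples were 1 cell line grown in DMEM with fetal bovine serum. No vehicle is named for the controls, and nothing says that the 3 samples of a group were separate cultures, so the p-values measure only the spread between these samples, which may be technical.

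Proteins of the MYC family have no stable DNA binding of their own. They pair with MAX, bind the E-box CACGTG, and switch on genes for ribosome production, nucleotide synthesis, metabolism and cell division. The MXD proteins, MXI1 and MNT compete for the same MAX and the same E-box but bring in the SIN3 corepressor with its histone deacetylases, while MGA brings MAX into a polycomb complex. The network is known for tying transcription to proliferation, and its mRNA levels do not show protein levels, pairing or DNA binding.

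Total expected counts were between 16133786 and 16702316 per sample. A count of 0 in 1 sample allows a level of up to 3 counts, which at these totals is 0.18 to 0.19 CPM. Of 12368 genes tested with edgeR's quasi-likelihood test, 36.4% were called at a Benjamini-Hochberg adjusted p under 0.05, with 19.2% higher and 17.1% lower in 4HC, and the median log2 fold change was 0.00. Of 12 granulosa markers, 11 were in the table, all but AMHR2. Of these, 7 were under 1 TPM in every sample: FOXL2, FSHR, CYP19A1, INHBA, NR5A1, STAR and GATA4. The others had control means of 133 TPM for WT1, 22.5 for HSD17B1, 5.34 for AMH and 1.18 for INHA. The 11 markers summed to 159 to 167 TPM in control and 132 to 138 TPM in 4HC. That gap was carried by WT1 (log2 fold change -0.35, SE 0.0352, edgeR adjusted p = 8.81e-12). The part of this gap in the results on the network was not tested. With so few of the markers present, the granulosa name rests on the labels. The epithelial, stromal, theca, oocyte and immune marker sums overlapped between the groups. The stromal sum, mostly LUM and DCN, was 53.3 to 57.7 TPM in control, below the granulosa sum. Taken singly in control, LUM (mean 43.2 TPM) was above every granulosa marker but WT1, and DCN (mean 11.5 TPM) was below HSD17B1.

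The E-box is the DNA element on which activators and antagonists meet, so the windows around the start sites of the members were searched for it on both strands (CACGTG reads the same on each). RefSeq windows of 250 bases before to 50 bases after the start, on GRCh38.p14, were found for 9 of the 10 members. MYC was the member not matched. MXD4 and MNT, both called higher in 4HC, held 1 E-box each, 238 and 193 bases before the start. The other 7 held none in these windows, MXD3 among them, the member with the largest fold change. A CACGTG was held by 7.26% of all 35116 windows, by 8.77% of genes with a window and by 12.7% of tested genes with one. The first 150 bases of the window are shown for these 3 members, 5′ to 3′ on the gene's strand, with the E-box in capitals. All 3 lie on the minus strand, MXD4 at chr4:2262210-2262359, MNT at chr17:2401161-2401310 and MXD3 at chr5:177312853-177313002.
MXD4: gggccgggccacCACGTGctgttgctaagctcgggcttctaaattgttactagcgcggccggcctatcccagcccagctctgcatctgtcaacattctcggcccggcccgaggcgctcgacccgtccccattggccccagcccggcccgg
MNT: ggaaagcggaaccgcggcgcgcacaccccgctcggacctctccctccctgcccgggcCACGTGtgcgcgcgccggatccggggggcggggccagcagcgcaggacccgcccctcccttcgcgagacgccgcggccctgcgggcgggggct
MXD3: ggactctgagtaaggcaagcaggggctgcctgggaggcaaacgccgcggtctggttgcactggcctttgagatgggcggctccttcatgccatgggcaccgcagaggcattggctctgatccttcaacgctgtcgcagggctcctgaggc

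After 4HC, MYC was lower, 3 antagonists (MXD3, MXD4 and MNT) were higher and 1 antagonist (MXI1) was lower. MAX was called lower by a small margin that did not hold under every setting. Of 9 members tested, 3 were called higher and 3 lower, against 19.2% and 17.1% of all genes, and none changed by a fold of 2 or more, which 1.15% of all genes did with an unadjusted p under 0.05. The normalized values of the groups did not overlap for 5 of the 9, against 45.3% of all genes. The values given are read counts scaled to library size (CPM) and normalized by TMM, with the mean ± SD of 3 samples, and fold changes are 4HC against control.

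**Figure D1:**
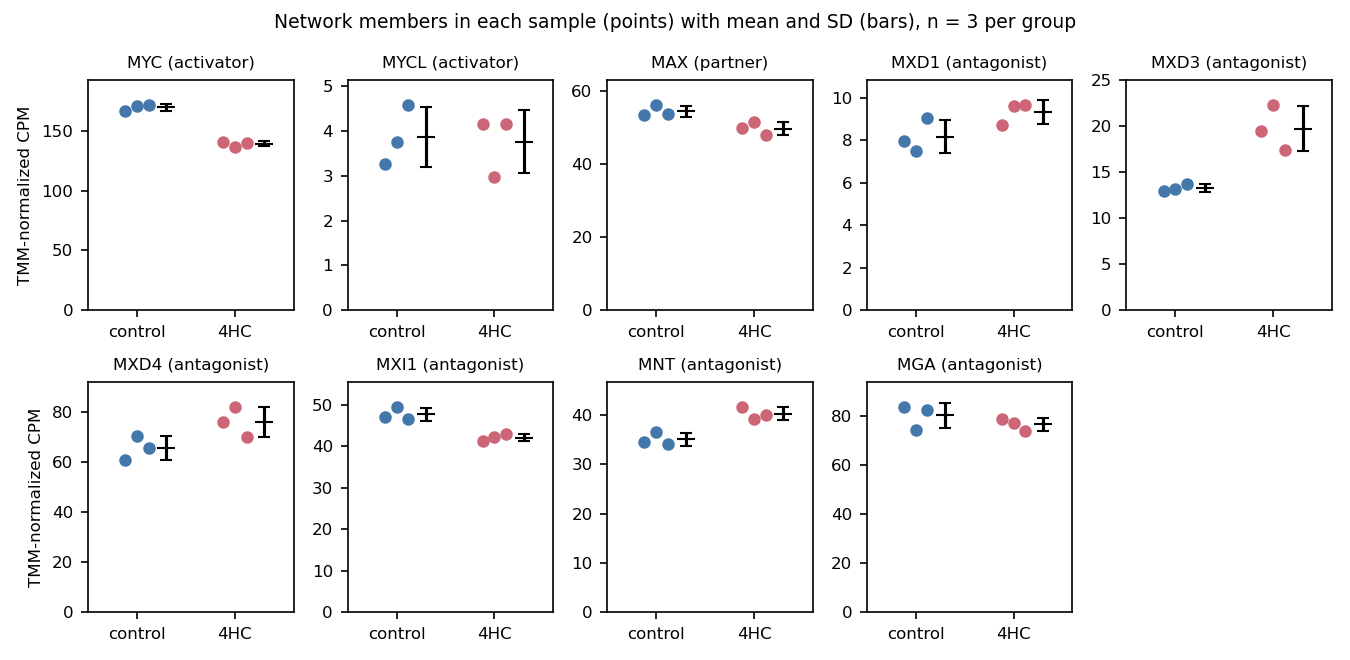
TMM-normalized CPM (y axis, from 0) of the 9 tested members in each control and 4HC sample (points), with the mean and SD of 3 samples (bars). MYC sits at 167 to 172 CPM in control and 137 to 141 CPM in 4HC, and MXD3 at 12.9 to 13.8 and 17.4 to 22.3 CPM.

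Among the activators, MYC (NCBI Gene 4609, chromosome 8), the member that drives growth in most dividing cells, was by far the most abundant. It was at 167, 171 and 172 CPM in the control samples and at 141, 137 and 139.7 CPM in the 4HC samples. Every 4HC sample was below every control sample. The mean fell from 169.9 ± 2.86 to 139 ± 2.10 CPM, a decrease of 18.1% (log2 fold change -0.29, SE 0.0371, 95% interval -0.36 to -0.21, edgeR adjusted p = 9.25e-09). In bulk RNA, fewer cells expressing a gene and less RNA per cell cannot be told apart. MYCL, the relative first found in lung cancer, was near 4 CPM, with 3.27, 3.75 and 4.59 in control and 4.16, 2.96 and 4.16 in 4HC. Its groups overlapped, and its log2 fold change was -0.04 (interval -0.38 to 0.30, adjusted p = 0.881), so its interval includes a decrease as large as that of MYC. MYCN, known from neuroblastoma and the embryo, had 1, 1 and 1 count in control and 1, 2 and 0 in 4HC. It was at or under the limit that a count of 0 allows in all 6 samples, so no fold is given.

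MAX (chr14:65006101-65102695), the partner shared by all other members, was at 53.4, 56.3 and 53.6 CPM in control and 49.7, 51.4 and 47.9 CPM in 4HC. The CPM values did not overlap, whereas the deposited TPM values did, at 53.55 to 57.5 TPM and 46.9 to 53.56 TPM. The mean went from 54.4 ± 1.59 to 49.7 ± 1.75 CPM (log2 fold change -0.13, SE 0.0510, interval -0.23 to -0.03, edgeR adjusted p = 0.0387). The call on the MAX log2 fold change was lost in DESeq2 (adjusted p = 0.109) and without control replicate 2 (0.144), control replicate 3 (0.0615), 4HC replicate 1 (0.0571) or 4HC replicate 3 (0.142), so it depended on single samples.

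Of the antagonists, MXD3 (chr5:177305499-177312752), a member known from cells in S phase and from progenitors rather than from differentiated cells, showed the largest difference of the network. It was at 12.9, 13.2 and 13.8 CPM in control and at 19.5, 22.3 and 17.4 CPM in 4HC. Every 4HC sample was above every control sample, and the 4HC samples were spread more widely. The mean rose from 13.3 ± 0.419 to 19.7 ± 2.48 CPM, 1.48-fold (log2 fold change 0.57, SE 0.0848, interval 0.40 to 0.74, edgeR adjusted p = 2.75e-07). Of all genes tested, 3.88% had a larger log2 fold change. Exons of MXD3 overlap those of PRELID1 on the opposite strand (22.5% of its exonic bases in GENCODE) and of RAB24 on its own strand (18.0%), and since the strandedness of the libraries is not given, reads in these stretches could be assigned to either gene. PRELID1 had a log2 fold change of -0.07 (adjusted p = 0.12) and RAB24 of 0.12 (adjusted p = 0.105).

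MXD4 (chr4:2247432-2262109), an antagonist associated with cells leaving the cycle, was at 61.0, 70.5 and 65.7 CPM in control and 75.8, 82.0 and 69.9 CPM in 4HC. The lowest 4HC sample lay just under the highest control sample, so the groups overlapped. The mean rose from 65.7 ± 4.76 to 75.9 ± 6.06 CPM (log2 fold change 0.21, SE 0.0517, interval 0.10 to 0.31, edgeR adjusted p = 0.00115). MNT (chr17:2384073-2401104), the broadly expressed antagonist that is present together with MYC in growing cells, was at 34.5, 36.6 and 34.1 CPM in control and 41.6, 39.2 and 40.0 CPM in 4HC. These groups did not overlap. Its mean rose from 35.1 ± 1.37 to 40.3 ± 1.23 CPM (log2 fold change 0.20, SE 0.0566, interval 0.09 to 0.32, edgeR adjusted p = 0.00385), and the call on the MNT log2 fold change was lost on the TPM scale in limma (adjusted p = 0.0778 with a pseudocount of 0.1). Of its exonic bases, 12.2% overlap the antisense gene AC006435.1.

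MXI1 (chr10:110207605-110287365), also called MXD2, went the other way. It was at 47.1, 49.5 and 46.6 CPM in control and 41.3, 42.2 and 43.0 CPM in 4HC, with no overlap. The mean fell from 47.8 ± 1.57 to 42.2 ± 0.874 CPM (log2 fold change -0.18, SE 0.0530, interval -0.29 to -0.07, edgeR adjusted p = 0.00593).

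The remaining antagonists did not pass the test. MXD1 (chr2:69915109-69942945), linked to differentiation, was at 7.95, 7.51 and 9.05 CPM in control and 8.69, 9.62 and 9.67 CPM in 4HC, with overlapping groups and a log2 fold change of 0.19 (interval -0.03 to 0.41, adjusted p = 0.177). MGA (chr15:41621225-41773080), which carries both a T-box and a MAX-binding domain, was at 83.8, 74.6 and 82.5 CPM in control and 79.1, 77.1 and 73.8 CPM in 4HC. Its groups overlapped too, with a log2 fold change of -0.07 (interval -0.16 to 0.03, adjusted p = 0.272). The interval of MXD1 includes rises of the size of those of MXD4 and MNT, and that of MGA does not.

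**Figure D2:**
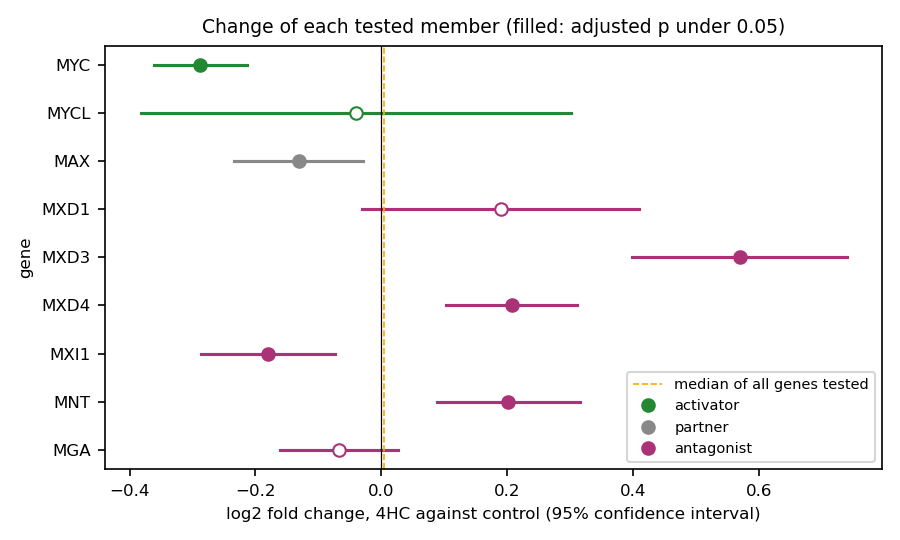
Log2 fold change of the tested members, 4HC against control (points), with 95% intervals from edgeR (lines). MXD3 lies farthest from 0, at 0.57, MYC is lowest, at -0.29, and the intervals of MYCL, MXD1 and MGA include 0.

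Levels of different genes can only be compared per length, and for this the deposited TPM was used. In control cells MYC was the highest member at 73.7 TPM, followed by MAX at 56.0, MXD4 at 28.7, MXD3 at 24.7, MXI1 at 24.0, MGA at 12.98, MNT at 10.4, MXD1 at 2.43 and MYCL at 2.26 TPM, with MYCN at 0.07 TPM. MXD3 and MXI1 did not differ beyond their spread, nor did MXD1 and MYCL. In 4HC the order was MYC at 60.0, MAX at 49.9, MXD3 at 37.2, MXD4 at 32.9, MXI1 at 21.0, MGA at 12.4, MNT at 11.8, MXD1 at 2.76 and MYCL at 2.22 TPM. MXD3 had thus passed MXD4 in mean level, though these samples overlapped, and MGA and MNT now overlapped as well. FPKM gave the same order in both groups.

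Antagonist mRNA exceeded activator mRNA in both groups and by a wider margin after 4HC. Summed over MYC, MYCN and MYCL, the activators were at 74.4, 76.0 and 77.7 TPM in control and 63.9, 60.2 and 62.8 TPM in 4HC, and MYC made up 96.9% of the sum in control and 96.3% in 4HC. Summed over the 6 antagonists, the level was 100.4, 104 and 105 TPM in control and 119, 125 and 111 TPM in 4HC. Neither sum overlapped between the groups. The ratio of antagonists to activators was 1.35, 1.37 and 1.35 in control and 1.86, 2.08 and 1.76 in 4HC, a mean of 1.36 ± 0.0148 against 1.90 ± 0.164. No test is given for this sum over chosen genes.

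In TPM, most of the rise in the antagonist sum was MXD3, to which the limit of its exon overlaps with PRELID1 and RAB24 applies. The other 5 antagonists together were at 76.45, 79.9 and 79.4 TPM in control and 81.8, 82.9 and 78.2 TPM in 4HC, and these overlapped. Without MXD3 the ratio was 1.03, 1.05 and 1.02 in control and 1.28, 1.38 and 1.24 in 4HC, a difference of 0.267 in place of 0.542. Without MGA, which represses through a different complex, the difference was 0.513. MXD3 went from 23.9% to 31.4% of the antagonist sum while MXI1 went from 23.3% to 17.9%, and the ratio of MXD3 to MXI1 moved from 1.03 ± 0.0404 to 1.77 ± 0.257 without overlap. MYC relative to MAX, in contrast, was 1.32 ± 0.0356 in control and 1.21 ± 0.104 in 4HC, and overlapped.

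Members of this network are made in several forms, and the table of transcripts gives their estimated levels, in which reads of shared exons are divided between transcripts by the counting program. Over all 47252 transcripts with a mean of at least 10 counts in a group, 18.7% did not overlap between the groups, with 9.14% higher and 9.6% lower in 4HC. Both listed MYC transcripts were lower in every 4HC sample. NM_002467, which encodes 454 amino acids, was at 57.3, 58.0 and 58.3 TPM in control and 48.4, 44.8 and 47.5 TPM in 4HC, and NM_001354870 at 15.2, 15.7 and 16.65 TPM and 12.9, 13.6 and 12.8 TPM. NM_002467 made up 78.5% of MYC in control and 78.1% in 4HC, so both forms moved by a like amount.

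In MXI1, 1 of 3 forms was lower without overlap, against 9.6% of all transcripts. NM_005962, of 228 amino acids, was at 6.0, 5.62 and 9.2 TPM in control and 4.77, 4.02 and 4.69 TPM in 4HC, without overlap. The more abundant NM_130439, of 295 amino acids, was at 16.4, 17.9 and 13.35 TPM and 15.0, 15.6 and 15.2 TPM, which overlapped. The control sample with the least NM_130439 had the most NM_005962, so the split between them was uncertain in that sample.

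The 2 main MAX forms, NM_145112 (151 amino acids) and NM_002382 (160 amino acids), overlapped between the groups, at means of 35.7 and 31.8 TPM and of 11.4 and 11.2 TPM. A minor form of 96 amino acids, NM_145114, was at 1.64, 2.01 and 1.75 TPM in control and 1.5, 1.22 and 0 TPM in 4HC. None of the 4 MXD3 forms was separate between the groups: NM_031300, of 206 amino acids, was at 10.0, 8.41 and 19.8 TPM in control and 19.0, 30.8 and 10.1 TPM in 4HC. The gene's rise could therefore not be placed on 1 form. MXD4 was listed with a single transcript, NM_006454, of 209 amino acids. For MYCL, NM_001033082 was higher in every 4HC sample, at 1.07, 0.83 and 0.85 TPM in control and 1.68, 1.09 and 1.32 TPM in 4HC, at levels where a few reads decide the value. MNT had 1 of 4 forms above control without overlap, and MGA had 3 above and 1 below of 16, each under 2 TPM on average, against 18.7% of all transcripts.

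Lists of genes around the network were counted next, to be read against the 19.2% of all genes called higher and the 17.1% called lower. Of 69 tested genes that MYC is known to activate, 46 were lower and 7 higher in 4HC, which is 66.7% and 10.1%. The 7 higher came to 3 in DESeq2, without 4HC replicate 1 and without control replicate 3. Their median log2 fold change was -0.20, against 0.00 for all genes. PLK1, a kinase of mitosis, fell from 116 ± 0.966 to 69.9 ± 4.75 CPM (log2 fold change -0.73, SE 0.0448, edgeR adjusted p = 2.10e-19). HK2, which carries out the first step of glycolysis, had a log2 fold change of -0.51 (SE 0.0488). PPAN, a ribosome assembly factor, had one of -0.41 (SE 0.0593). Other genes named after their values were seen were ODC1, which starts polyamine synthesis (-0.30), and the nucleolar proteins NCL (-0.21) and NPM1 (-0.20). The exceptions, also named after their values were seen, included MCM4 of the replicative helicase (0.30), the nucleotide kinase NME1 (0.24) and telomerase TERT (0.40, from 3.69 to 4.87 CPM). In the broad hallmark list of MYC targets, version 1, 95 of 200 genes were lower and 29 higher, with a median of -0.08. Of these 200 genes, 28 are also in the other lists, so it is not a fully separate view. In version 2, whose 58 genes are nearly all within the activated list and so add nothing to it, 40 were lower and 4 higher. The activated list is made up mostly of these 58 genes.

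Of 12 tested genes that MYC is known to repress, 4 were higher and 3 lower, which is 33.3% and 25.0% against 19.2% and 17.1% of all genes, and the median of their log2 fold changes was -0.13. CDKN1A, the p21 inhibitor of cyclin-dependent kinases, was at 220.3, 233 and 221 CPM in control and 799.7, 786 and 764 CPM in 4HC. It rose from 225 ± 7.25 to 783 ± 18.0 CPM (log2 fold change 1.80, SE 0.0334, edgeR adjusted p = 2.56e-42). CDKN1A is also a main target of p53. FTH1, the ferritin heavy chain that stores iron, rose by 0.36 (SE 0.0333) and KLF6 fell by 0.74 (SE 0.0585). CDKN1B, GADD45A, NDRG2 and THBS1 were named after their values were seen: GADD45A (0.35) and NDRG2 (0.33) rose, while CDKN1B (-0.28) and THBS1 (-0.28) fell.

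Of 26 genes that control the stability of the MYC protein, 7 were higher and 9 lower, which is 26.9% and 34.6% against 19.2% and 17.1% of all genes, with a median of 0.01. The 9 lower came to 6 in DESeq2, in limma on FPKM and without 4HC replicate 2. FBXW7, the substrate receptor of the ubiquitin ligase that degrades MYC, was at 25.4, 25.8 and 23.6 CPM in control and 37.9, 39.8 and 41.2 CPM in 4HC, without overlap. Its mean rose from 24.9 ± 1.19 to 39.6 ± 1.65 CPM (log2 fold change 0.67, SE 0.0608, edgeR adjusted p = 3.65e-13). PLK1, which is also counted among the activated targets above, had the largest change of this list (-0.73, SE 0.0448). CDK2, a kinase of the S phase, rose by 0.44 (SE 0.0409). AURKA, which is known for shielding MYCN from FBXW7, was named after its values were seen and had a log2 fold change of -0.38. Named in the same way, CIP2A, an inhibitor of the phosphatase PP2A, had 0.35, the phosphatase gene PPP2CA -0.22 and the ligase HUWE1 -0.19. These genes were picked from a list whose calls went both ways, so they give no direction for the MYC protein. MYC protein itself was not measured here.

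The cofactors of the 2 arms were counted in the same way. Of 17 MYC coactivators and partners, 2 were higher and 5 lower, with a median of -0.03. That is 41.2% called, near the 36.4% of all genes, and the 5 lower came to 3 without 4HC replicate 2 or control replicate 3, and the 2 higher to 1 without 4HC replicate 1 or control replicate 1. The helicases RUVBL1 (-0.30, SE 0.0410) and RUVBL2 (-0.19, SE 0.0404) and the acetyltransferase EP300 (-0.20, SE 0.0411) were the lower genes named by rule. Of 17 genes of the SIN3 corepressor, through which MXD proteins act, 1 was higher and 3 lower, with a median of 0.02. The 17.6% lower is near the 17.1% of all genes, and the 3 lower came to 1 in DESeq2, in limma on TPM and FPKM and without control replicate 2, while the 1 higher came to 2 without control replicate 3. HDAC2 fell by 0.23 (SE 0.0364) and BRMS1L rose by 0.34 (SE 0.0573). ING1 fell by 0.23 (SE 0.0736), a call lost in DESeq2, in limma on TPM and FPKM and without control replicate 2. The scaffold SIN3A had a log2 fold change of -0.05 (edgeR adjusted p = 0.323). Of 11 genes of the polycomb complex built on MGA, 2 were lower, CBX1 (-0.12, SE 0.0347) and CBX3 (-0.10, SE 0.0349), or 18.2% against 17.1% of all genes. None was higher, though 1 was with scaling by library size only. The CBX3 call was lost with that scaling, in limma on FPKM, and without control replicate 1, control replicate 3 or 4HC replicate 1. In the sister branch built on MLX, 1 of 4 genes was lower, the glucose-responsive target ARRDC4 (-0.20, SE 0.0616), against 17.1% of all genes. That call was lost without control replicate 3 and in limma on FPKM, and without 4HC replicate 3 another gene of the branch was called higher.

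Genes with and without a CACGTG in their promoter window were then set side by side, with no test. Of 1289 tested genes with one, 18.4% were higher and 20.9% lower in 4HC, and their log2 fold changes had a median of -0.00. Of 8891 tested genes with a window that held none, 19.0% were higher and 16.9% lower, with a median of 0.01. A match of 6 letters does not show that any member of the network was bound there.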

How the data were processed

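Total RNA of COV434 cells (3 control and 3 4HC samples) was sequenced. Per the labels, the authors filtered reads with SOAPnuke and used the Dr. Tom system; the submitters' processing notes also name HISAT2, Bowtie2, RSEM 1.3.1, DESeq2 1.4.5 and GRCh38.p13, with no roles. The authors deposited expected counts, not normalized, for 16798 genes and 79213 transcripts, of which 85.5% of the gene values were whole. The authors also deposited TPM and FPKM, scaled to length and depth. The columns of the authors' own comparison (log2 fold change, p-value, q-value) and a duplicate gene table were not used. Totals were 16133786 to 16702316 per sample. The limit that a count of 0 allows covers counting error only, while the edgeR intervals also include the spread between samples.

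Expected counts were rounded and tested in edgeR 4.0.16 (R 4.3.3) with TMM, filterByExpr, the quasi-likelihood test and group as the only term, adjusted by the Benjamini-Hochberg method over 12368 genes. TPM and FPKM entered limma 3.58.1 as log2(value + 1) or log2(TPM + 0.1), and DESeq2 1.42.0 was an alternative. The procedure was run on simulated counts in which few genes changed, each by more than any tested member but MXD3. That run does not show how well changes as small as those of the other members are found. Genes are named by rule: every member, the granulosa markers, FBXW7, and from each list the 3 largest changes past the test with at least 5 CPM and no overlap. The members, lists and rule were chosen with earlier results of these data known, and the hallmark lists were added after the data were seen. Promoter windows come from RefSeq. Pairs of replicates differed by more than sampling noise. With 3 samples against 3, an exact permutation test cannot go below 0.1, so none is given.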

Additional observations from a re-analysis of the deposited data

How the results depend on the processing

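Over 18 alternatives and 76 results, 934 values were labelled the same, 21 lost the call, 37 moved and 2 reversed. For a count, the same allows some shift, such as 9 lower genes of the stability list becoming 6 in DESeq2. Results without a call, such as MXD1 and MGA, could also be the same, so 934 is not a number of calls kept. Both reversals were MYCL, near 4 CPM, whose log2 fold change without 1 sample ranged from -0.15 to 0.10 and was 0.10 without 4HC replicate 2 or control replicate 3. MAX lost its call in DESeq2 (-0.14), with library size only (-0.11) and in limma on FPKM (-0.14), and ranged from -0.16 to -0.11 without 1 sample. MNT lost its call in limma on TPM with a pseudocount of 0.1 (0.17) or 1 (0.16). MYC, MXD3, MXD4 and MXI1 kept their calls under every alternative run, while ING1, CBX3 and ARRDC4 lost theirs under some. Without MXD3 among the antagonists, the difference in ratio was 0.267. The cause of these shifts was not tested. DESeq2 called 3178 genes, 1614 higher and 1564 lower, and limma on FPKM called 1343 genes lower.

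The lists gave these ranges without 1 sample, with other settings in brackets. The MLX branch had 0 to 1 higher and 0 to 1 lower (0 lower in FPKM). The SIN3 list had 1 to 2 higher (2 with library size only and in FPKM) and 1 to 3 lower (1 in DESeq2, FPKM and both TPM fits). The MGA complex had 1 to 2 lower (1 higher and 1 lower with library size only, 1 lower in FPKM). The coactivators had 1 to 3 higher (1 in FPKM and both TPM fits) and 3 to 6 lower (3 in FPKM). The stability list had 6 to 7 higher and 6 to 10 lower (6 in DESeq2 and FPKM). The activated targets had 3 to 6 higher (3 in DESeq2, 4 in TPM with 0.1) and 43 to 46 lower. The hallmark list version 2 had 2 to 4 higher (1 in DESeq2 and in TPM with 0.1, 2 in TPM with 1). In both TPM fits and FPKM, 1 oocyte marker was lower.

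Same-numbered samples of the 2 groups did not deviate together (correlations 0.00866, 0.0694 and 0.0302), so the numbers were not taken to pair the samples. With the replicate number as a block, 4213 genes were called (2259 higher, 1954 lower), the members still counted 3 higher and 3 lower, and MYC had a log2 fold change of -0.29. Depth limited MYCN, MYCL and the minor transcripts, and outlying samples were not tested for in groups of 3.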
